A study of Homo sapiens with 6 samples.

Results

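The genes of the NKG2D ligands were read in RNA libraries of HK-2, a long-established cell line grown from human proximal tubule. The family has 8 genes, ULBP1, ULBP2, ULBP3, RAET1E, RAET1G, RAET1L, MICA and MICB, and all 8 were found by their symbol among the 31369 genes of the count table. The family was chosen with the comparison of these same samples already known, so the values of its genes are given as a description, without p-values. The 3 samples of the control group (NC) carry the genotype label WT, and the 3 samples of the overexpression group (OE) carry the label for overexpression of *PPM1K*, which encodes the mitochondrial phosphatase that activates the dehydrogenase of branched-chain keto acids. All 6 samples share the labels Day 10 and Chronic kidney disease, and the protocol describes a *PPM1K* plasmid delivered with a lipid reagent. What the control cells received is not given in the sources used here, nor is the promoter of the plasmid. The sample titles name short hairpins in place of overexpression, and the numbers of the cell line labels run from HK-2 to HK-12, while the cell type label is HK-2 throughout. The study calls the samples of a group biological replicates, but whether they were separate cultures or transfections is not given in the sources used here, so part of the spread between them may be technical.

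NKG2D is an activating receptor on natural killer cells and on cytotoxic T cells. Its ligands are distant relatives of the MHC class I heavy chain that present no peptide and need no beta-2-microglobulin, and they are known for being scarce on healthy epithelium and for appearing on stressed, infected or transformed cells. ULBP1, ULBP2 and ULBP3 are held in the membrane mostly by a lipid anchor, RAET1E (also called ULBP4) and RAET1G (ULBP5) have a transmembrane segment, and RAET1L is also called ULBP6. MICA and MICB are transmembrane proteins that keep the immunoglobulin-like domain of class I chains. Proteases of the ADAM and MMP families can cut several of them from the cell surface, which RNA counts do not show.

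The 8 genes lie in 2 regions of chromosome 6 (GENCODE release 44 on GRCh38), and all are protein-coding. ULBP1 (ENSG00000111981.5) occupies chr6:149963943-149973715 on the plus strand with 5 exons in its canonical transcript. In the same cluster, ULBP2 (ENSG00000131015.5, plus strand) lies at chr6:149942014-149949235, ULBP3 (ENSG00000131019.11, minus strand) at chr6:150061053-150069121, RAET1E (ENSG00000164520.11, minus strand) at chr6:149883179-149898113, RAET1G (ENSG00000203722.8, minus strand) at chr6:149916878-149923121 and RAET1L (ENSG00000155918.8, minus strand) at chr6:150018334-150025532. MICA (ENSG00000204520.14, plus strand) at chr6:31399784-31415315 and MICB (ENSG00000204516.10, plus strand) at chr6:31494881-31511124 sit in the MHC. RAET1E and RAET1G overlap the antisense RNA RAET1E-AS1, RAET1E also overlaps RP11-350J20.15 (ENSG00000285991.1) on its own strand, MICA overlaps XXbac-BPG181B23.9 (ENSG00000288587.1) on its own strand, and MICB overlaps MICB-DT. The library kit keeps strand, but whether the counting used it is not given in the sources used here, so counts of overlapping genes are uncertain.

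Several members are close copies of each other. Over the coding sequences of the canonical transcripts, ULBP2 and RAET1L were identical at 96.7% of aligned bases, RAET1G and RAET1L at 94.7%, ULBP2 and RAET1G at 94.6%, and MICA and MICB at 92.1%. ULBP1 was identical to ULBP2 at 77.7% and to RAET1G at 80.3%, and RAET1E to ULBP1 at 63.9%. The authors counted uniquely mapped reads, so reads from stretches that 2 copies share could be lost or divided. By these coding sequences alone, this bears most on ULBP2, RAET1G, RAET1L, MICA and MICB and least on ULBP1, ULBP3 and RAET1E. The coding part is 732 of the 3211 exonic bases of ULBP1 and 789 of the 6524 of RAET1E. The rest of the transcripts and the family pseudogene RAET1K were not aligned.

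The stretches of 250 bases before the start site are shown for the genes whose levels are contrasted here, namely ULBP1 and RAET1E, which were higher in OE, ULBP2, the neighbour of ULBP1 that was not, and the copies MICA and MICB. They are RefSeq windows of GRCh38.p14, each written on the strand of its gene and ending at the base before the start, from chr6:149963693-149963942 for ULBP1 (plus strand), chr6:149941764-149942013 for ULBP2 (plus), chr6:149898114-149898363 for RAET1E (minus, 1 of its 3 windows), chr6:31403345-31403594 for MICA (plus) and chr6:31497895-31498144 for MICB (plus). The RefSeq starts used for MICA and MICB lie inside the gene spans given above, which begin at 31399784 and 31494881. Positions of motifs are counted from the RefSeq starts. Capitals mark TGACG and TGACGCAA in ULBP1, TGACG in ULBP2, GAANNTTC in MICA and MICB, GGGCGG in all but RAET1E, and CCAAT in all but ULBP1, on either strand.
ULBP1: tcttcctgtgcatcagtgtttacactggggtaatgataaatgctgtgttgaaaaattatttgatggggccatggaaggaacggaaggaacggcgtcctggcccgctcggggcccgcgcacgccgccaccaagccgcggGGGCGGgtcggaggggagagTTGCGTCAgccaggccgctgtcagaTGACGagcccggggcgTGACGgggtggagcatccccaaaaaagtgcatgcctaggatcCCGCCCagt
ULBP2: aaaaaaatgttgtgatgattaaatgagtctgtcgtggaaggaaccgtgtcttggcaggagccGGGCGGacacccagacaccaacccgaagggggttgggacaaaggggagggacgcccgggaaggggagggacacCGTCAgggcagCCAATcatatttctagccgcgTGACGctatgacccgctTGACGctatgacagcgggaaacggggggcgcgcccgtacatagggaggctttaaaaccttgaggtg
RAET1E: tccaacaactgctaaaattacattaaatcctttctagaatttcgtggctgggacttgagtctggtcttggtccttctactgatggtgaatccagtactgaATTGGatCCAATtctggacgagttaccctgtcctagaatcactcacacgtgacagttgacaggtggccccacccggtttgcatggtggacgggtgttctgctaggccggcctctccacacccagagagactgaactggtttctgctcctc
MICA: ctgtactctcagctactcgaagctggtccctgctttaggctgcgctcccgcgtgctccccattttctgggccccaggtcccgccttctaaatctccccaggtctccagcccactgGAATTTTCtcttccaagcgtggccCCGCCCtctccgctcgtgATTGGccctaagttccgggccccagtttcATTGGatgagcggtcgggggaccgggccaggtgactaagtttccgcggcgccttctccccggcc
MICB: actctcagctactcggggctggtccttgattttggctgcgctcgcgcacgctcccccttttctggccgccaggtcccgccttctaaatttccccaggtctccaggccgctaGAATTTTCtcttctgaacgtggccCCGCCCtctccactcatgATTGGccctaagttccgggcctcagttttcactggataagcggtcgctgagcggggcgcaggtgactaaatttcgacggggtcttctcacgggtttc

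Letters of known elements were searched on both strands of the 300-base RefSeq windows, which add 50 bases after the start, for all 8 genes and for all 35116 windows of the table. The core of the composite element of C/EBP and ATF proteins, TGATGNAA, was in 1 of the 8 windows, that of ULBP2 at positions 21 to 28 after the start, against 3.62% of all windows. Its stricter form TGATGCAA was in none of the 8 and in 0.866% of all windows, and the full cyclic AMP response element TGACGTCA was likewise in none of them and in 1.85% of all. The GC box GGGCGG, which SP1 binds, was in 6 of the 8 windows and in 45.0% of all, and CCAAT, the NF-Y site, was in 5 of 8 and in 34.6% of all. The heat shock element core GAANNTTC was found in MICA, at −135 to −128, and in MICB, at −139 to −132, and in 6.77% of all windows. After the windows had been read, TGACG, the start of the cyclic AMP response element, was also searched. It occurred 3 times in ULBP1 and 3 times in ULBP2, in no other member and in 24.6% of all windows. TGACGCAA, chosen in the same way, was found on the minus strand of ULBP1 at −92 to −85, where it overlaps a TGACG, and in 0.513% of all windows. A match of letters is a description and shows no binding. In the upstream stretches of 250 bases, MICA and MICB were identical at 85.4% of 246 aligned bases. ULBP1 and ULBP2 were identical at 66.0% of only 200 aligned bases, and bases set against gaps are not in these shares.

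The samples held 34635770 to 39850802 counts each. NC replicate 2 stood apart, with 26478 genes counted at least once, against 22094 to 22913 in the others, and 3551 genes counted in no other sample, against 449 to 766. The targeted gene *PPM1K* had 37, 19 and 53 counts in NC and 3294, 3531 and 2919 in OE, a direction that follows the genotype labels and not the titles. In bulk RNA, fewer cells of a type and less RNA per cell cannot be told apart.

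ULBP1 was the well-counted ligand gene with the largest difference. Its counts were 53, 38 and 47 in NC and 288, 350 and 335 in OE (replicates 1, 2 and 3 in this order here and throughout), so that every OE sample was far above every NC sample. On the CPM scale, which is the counts scaled by edgeR to an equal library size, the NC level was 1.30 ± 0.222 (SD, n = 3) and the OE level 8.62 ± 0.738 (SD, n = 3). The log2 fold change of OE over NC in edgeR's model was 2.72 (standard error 0.15), which is 6.61-fold. Of the 15878 tested genes, 8 had a larger positive log2 fold change. With each sample left out in turn it stayed between 2.61 and 2.85, and without NC replicate 2 it was 2.61.

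The other ULBP genes had smaller values. ULBP2 had 211, 183 and 216 counts in NC and 234, 254 and 199 in OE, and its CPM of 5.76 ± 0.484 (SD, n = 3) and 6.08 ± 0.523 (SD, n = 3) overlapped between the groups. Its log2 fold change was 0.08 (standard error 0.12). ULBP3 had 290, 314 and 313 counts in NC and 372, 436 and 343 in OE, and its CPM was 8.65 ± 0.297 (SD, n = 3) and 10.2 ± 0.798 (SD, n = 3). Each OE sample of ULBP3 was above each NC sample in CPM, by a small margin, and the log2 fold change was 0.24 (standard error 0.10).

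The 3 RAET1 genes were barely counted in NC. RAET1E had 0, 1 and 0 counts in NC and 15, 19 and 25 in OE. Summed over the group this is 1 count against 59, a ratio per library size of 54.9 with a 95% exact interval of 9.47 to 2203 that covers counting error only. The interval pools the samples of each group and leaves out the spread between them. Since the family was chosen on this contrast, it is no test of a difference. The 1 count in NC was in replicate 2, the library that stood apart, and without that library NC had 0 counts of RAET1E. Its fitted log2 fold change of 5.36 (standard error 0.77) depends on the prior count of the model and ran from 4.90 to 7.28 with each sample left out, the highest without NC replicate 2, and the gene passed the filter on low counts only through the OE samples. RAET1E-AS1, antisense to it, had 5, 4 and 3 counts in NC and 3, 2 and 5 in OE, and RP11-350J20.15, which overlaps it on the same strand, had 587, 620 and 683 counts in NC and 670, 750 and 647 in OE, and stood at 0.04 on the log2 scale (standard error 0.08). RAET1E-AS1 had too few counts, and RP11-350J20.15 too many beside those of RAET1E, for shared reads to show in them. Whether reads of either entered the RAET1E counts was not tested.

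RAET1G had 11, 2 and 6 counts in NC and 11, 2 and 2 in OE, 19 against 15 in all, with wide overlap. RAET1L had 0 counts in each NC sample and 0, 3 and 2 in OE. Both were left out of the model by the filter on low counts, and at this depth no difference was detectable for either. For RAET1L no fold is given, because no sample had more than 3 counts.

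MICA was the most abundant member in NC and was lower in OE. Its counts were 1540, 1624 and 1610 in NC and 1156, 1291 and 1128 in OE, while XXbac-BPG181B23.9, which overlaps it, had 2 to 10 counts per sample, and its CPM fell in separate ranges, 45.1 ± 0.973 (SD, n = 3) for NC and 31.7 ± 0.858 (SD, n = 3) for OE. The log2 fold change was −0.51 (standard error 0.06), a ratio of 0.703, and stayed between −0.53 and −0.49 with each sample left out. This is short of the fold of 0.5 asked of a called gene. MICB, its close copy, had 1015, 963 and 977 counts in NC and 952, 1032 and 891 in OE. In CPM, 27.9 ± 1.10 (SD, n = 3) for NC and 25.5 ± 0.831 (SD, n = 3) for OE, each OE sample of MICB was below each NC sample, and the log2 fold change was −0.13 (standard error 0.07).

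**Figure D1:**
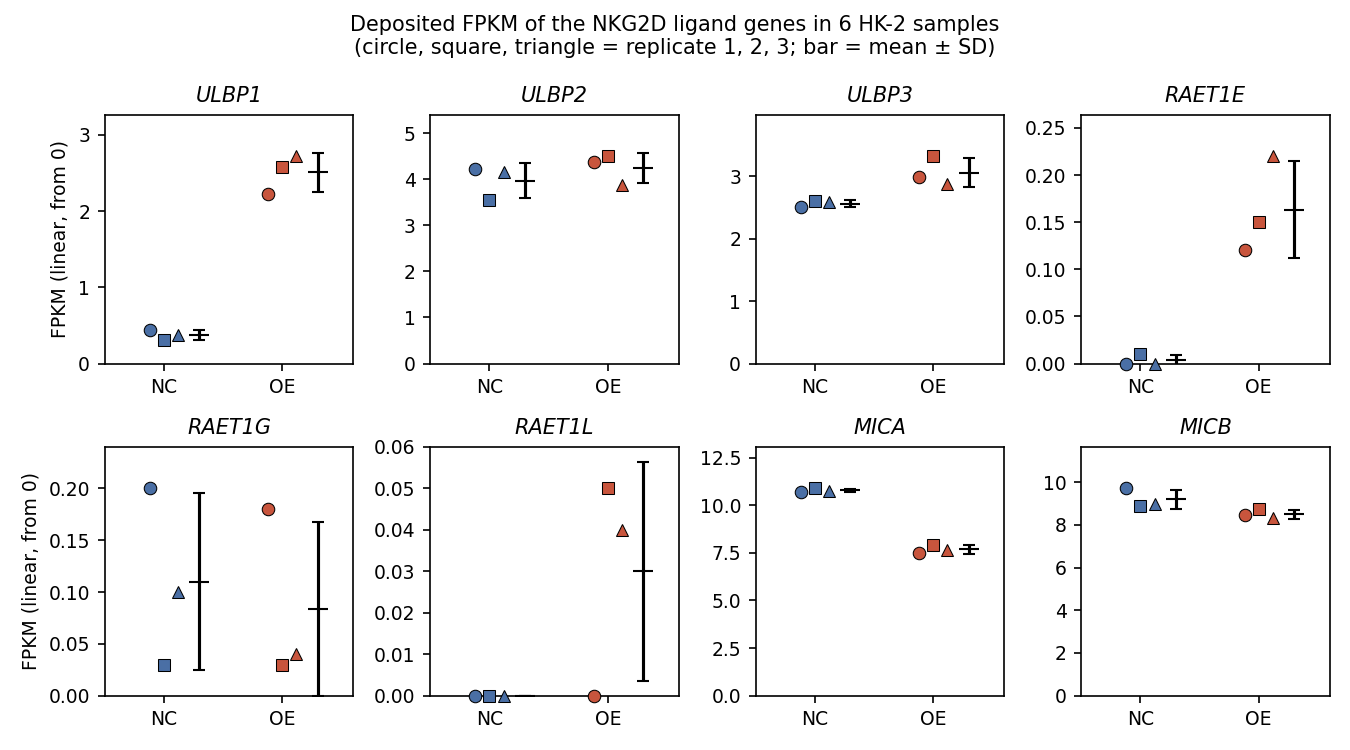
Deposited FPKM (fragments scaled to transcript length and library size, linear axes from 0, each panel with its own scale) of the 8 NKG2D ligand genes in the 3 NC (blue) and 3 OE (red) samples, with points for replicates and bars for the mean and SD. ULBP1 lies between 0.31 and 0.44 in NC and between 2.23 and 2.72 in OE, RAET1E is at or near 0 in NC, MICA falls from 10.71 to 10.89 in NC to 7.48 to 7.93 in OE, and ULBP2 and RAET1G overlap between the groups.

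The order of levels between genes was taken from FPKM, which is per length. Against the counts, these values imply transcript lengths of 1.43 kb for ULBP2 to 4.13 kb for MICA, and the order depends on the lengths that the authors used. The canonical transcript of MICA has only 1370 exonic bases. For MICB the implied length is 3.00 kb against 2416 exonic bases. In NC the order of mean FPKM was MICA at 10.78 ± 0.0964, MICB at 9.19 ± 0.452, ULBP2 at 3.97 ± 0.377, ULBP3 at 2.56 ± 0.0569, ULBP1 at 0.377 ± 0.0651, RAET1G at 0.11 ± 0.0854, RAET1E at 0.00333 ± 0.00577 and RAET1L, listed at 0 (SD, n = 3 throughout). Of the neighbours in that order, only RAET1E and RAET1L overlapped over the samples. In OE, MICB at 8.50 ± 0.216 stood above MICA at 7.68 ± 0.229 without overlap, followed by ULBP2 at 4.25 ± 0.327, ULBP3 at 3.06 ± 0.235, ULBP1 at 2.51 ± 0.252, RAET1E at 0.163 ± 0.0513, RAET1G at 0.0833 ± 0.0839 and RAET1L at 0.03 ± 0.0265 (SD, n = 3 throughout). Here RAET1E overlapped RAET1G, and RAET1G overlapped RAET1L. ULBP1 kept the fifth place in both groups but came close to ULBP3, and MICA and MICB changed places in FPKM. That change of places rests on the lengths used, and in counts MICA stayed above MICB in every OE sample.

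The summed FPKM of the 8 genes was 27.0 ± 0.758 (SD, n = 3) for NC and 26.3 ± 0.880 (SD, n = 3) for OE, with overlap between the groups. Their summed CPM, to which long transcripts add more, was 88.9 ± 0.764 (SD, n = 3) for NC and 82.7 ± 2.64 (SD, n = 3) for OE, and each OE sample was below each NC sample. The FPKM sum and its makeup depend on the lengths that the authors used. For MICA the implied length of 4.13 kb exceeds the 1370 exonic bases of its canonical transcript. MICA therefore weighs less here than it would by that transcript. The makeup of the summed FPKM differed. ULBP1 gave 1.39% ± 0.203 (SD, n = 3) of the NC sum and 9.56% ± 0.981 (SD, n = 3) of the OE sum, while MICA gave 38.5% to 41.4% of it in the NC samples and 28.9% to 29.7% in the OE samples. MICA and MICB together made 74.0% ± 1.12 (SD, n = 3) of the sum in NC and 61.6% ± 0.490 (SD, n = 3) in OE. RNA levels of this kind say nothing of how much of each protein is at the cell surface.

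**Figure D2:**
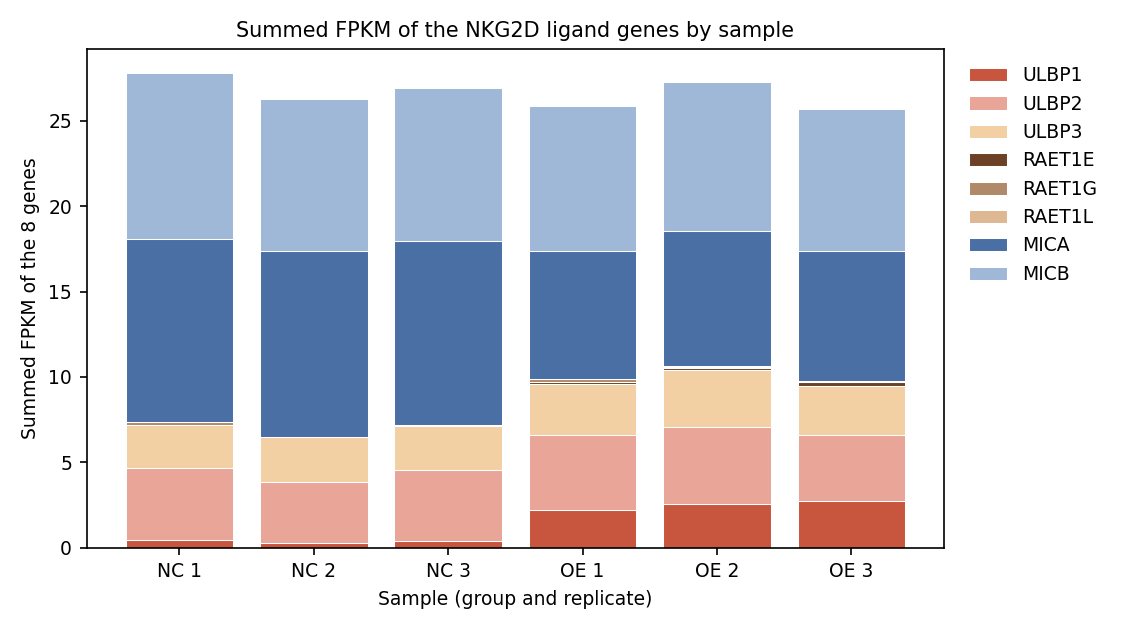
Stacked FPKM (linear axis from 0) of the 8 NKG2D ligand genes in each of the 6 samples. The height of the bars lies between 26.28 and 27.79 in NC and between 25.7 and 27.29 in OE, while the part of ULBP1 at the foot of each bar is wider, and that of MICA narrower, in OE.

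Ratios of 2 genes within a sample do not depend on the scaling between samples. There were 0.251, 0.208 and 0.218 counts of ULBP1 for each count of ULBP2 in NC, and 1.23, 1.38 and 1.68 in OE. The mean ratio was 0.225 ± 0.0228 (SD, n = 3) for NC and 1.43 ± 0.231 (SD, n = 3) for OE. These are counts, which do not allow for length, and per length ULBP1 was below ULBP2 in both groups. For MICA to MICB the ratio was 1.52, 1.69 and 1.65 in NC and 1.21, 1.25 and 1.27 in OE, with means of 1.62 ± 0.0887 (SD, n = 3) and 1.24 ± 0.0266 (SD, n = 3) that did not overlap. The copies therefore changed unequally, whatever the scaling.

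**Figure D3:**
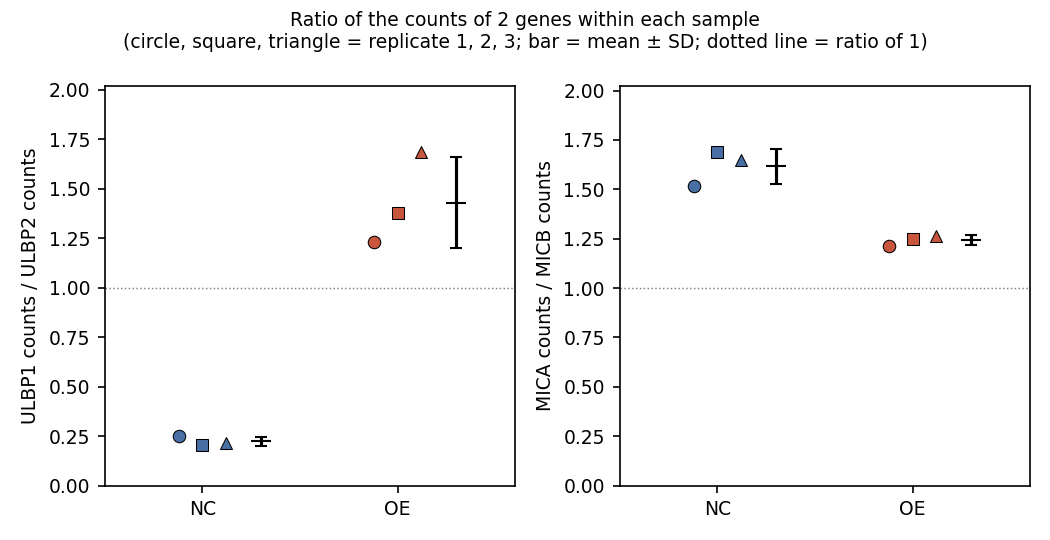
Counts of ULBP1 divided by those of ULBP2 (left) and counts of MICA divided by those of MICB (right) in each of the 3 NC (blue) and 3 OE (red) samples, on linear axes from 0, with points for replicates and bars for the mean and SD. The left ratio is 0.208 to 0.251 in NC and 1.23 to 1.68 in OE, and the right ratio is 1.52 to 1.69 in NC and 1.21 to 1.27 in OE.

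Of the 8 members, 6 passed the filter on low counts and were tested. Calling a gene took a Benjamini-Hochberg adjusted p under 0.05 over all tested genes, from the quasi-likelihood test of edgeR, and also a fold above 2 or below 0.5. ULBP1 and RAET1E, 2 of the 6, were called higher, where 1.73% of all tested genes were, and 0 were called lower, where 3.79% of all were. At the adjusted p alone 2 were higher, against 24.9% of all tested genes, and 1, MICA, was lower, against 23.7%. Since the family was chosen on this contrast, and RAET1E passed the filter only through the group where it is high, nothing is read from these counts.

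Genes around the ligands were taken from 4 lists, described by counts without a test of the list. Over all tested genes, 1.73% were called higher and 3.79% lower, and 24.9% were higher and 23.7% lower at the adjusted p alone, and the counts of each list and of the neighbouring genes stand against these shares. Of the 20 listed regulators of NKG2D ligand genes, all were tested, and 1 was called higher and 0 lower. At the adjusted p alone, 9 were higher and 4 lower, with a median log2 fold change of 0.14 against −0.0032 over all tested genes. DDIT3, which encodes the stress factor CHOP, had 1610, 1654 and 1764 counts in NC and 3898, 4050 and 3378 in OE and rose by 1.08 on the log2 scale (standard error 0.06, adjusted p = 3.1e-12). SP1, which binds GC boxes, rose by 0.53 (standard error 0.06), E2F1, a cell cycle factor, by 0.46 (standard error 0.07), and NFKB1, a subunit of NF-kB, by 0.41 (standard error 0.06). EIF2AK3, the stress kinase PERK, fell by 0.54 (standard error 0.08). In values singled out after they had been seen, ATF4, the stress factor known to act on ULBP1, rose by 0.28 (standard error 0.06), HSF1, the heat shock factor, by 0.31 (standard error 0.06), and RBM4, a splicing factor tied to ULBP1 RNA, fell by 0.38 (standard error 0.14). All of these passed the adjusted p, and of these only DDIT3 passed the fold of 2.

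Of the 14 genes listed for shedding of the ligands, 13 were tested, 1 was called higher and 0 lower, and at the adjusted p 2 were higher and 4 lower, with a median log2 fold change of −0.19. MMP9, a gelatinase, had 43, 26 and 29 counts in NC and 158, 138 and 120 in OE and rose by 1.99 on the log2 scale (standard error 0.21, adjusted p = 1.1e-07). MMP14, a membrane-bound protease, fell by 0.39 (standard error 0.05), PDIA6, the disulfide isomerase known as ERp5 that helps release MICA, by 0.36 (standard error 0.05), and the protease inhibitors TIMP1 and RECK by 0.29 (standard error 0.08) and 0.46 (standard error 0.14). Outside the naming rule, ADAM17, the main sheddase of many surface proteins, rose by 0.19 (standard error 0.07) and overlapped between the groups in CPM, while ADAM10 stood at 0.10 (standard error 0.06) and did not pass the test.

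Of the 13 genes listed as other activating ligands of natural killer cells, 12 were in the table and 10 were tested. A single gene was called in each direction, and at the adjusted p 2 were higher and 5 lower, with a median log2 fold change of −0.13. ICAM2, an adhesion ligand of LFA-1, had 17, 18 and 9 counts in NC and 30, 52 and 37 in OE and rose by 1.33 on the log2 scale (standard error 0.34, adjusted p = 0.0027). NCR3LG1, which encodes the NKp30 ligand B7-H6, rose by 0.81 (standard error 0.13). VCAM1, an adhesion molecule for VLA-4, had 1222, 1273 and 1329 counts in NC and 414, 501 and 458 in OE and fell by 1.57 (standard error 0.08, adjusted p = 7.3e-13). NECTIN2, a ligand of the receptor DNAM-1, fell by 0.23 (standard error 0.06) and LAMA5, a laminin chain, by 0.19 (standard error 0.05). PVR, the other DNAM-1 ligand, stood at 0.06 (standard error 0.05) and did not pass the test.

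Of the 15 genes listed as inhibitory ligands, 13 were tested, 0 were called higher and 1 lower, and at the adjusted p 2 were higher and 2 lower, with a median log2 fold change of 0.03. NECTIN3, a partner of TIGIT, rose by 0.63 (standard error 0.06, adjusted p = 6e-08), and HLA-E, which engages NKG2A, fell by 0.29 (standard error 0.05). CDH1, E-cadherin and a ligand of KLRG1, had 73, 80 and 66 counts in NC and 51, 26 and 32 in OE and fell by 1.09 (standard error 0.25, adjusted p = 0.0011). Without OE replicate 2 it was −0.86 and no longer called. Reads of HLA-E can be shared with its paralogs, so its value is uncertain.

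**Figure D4:**
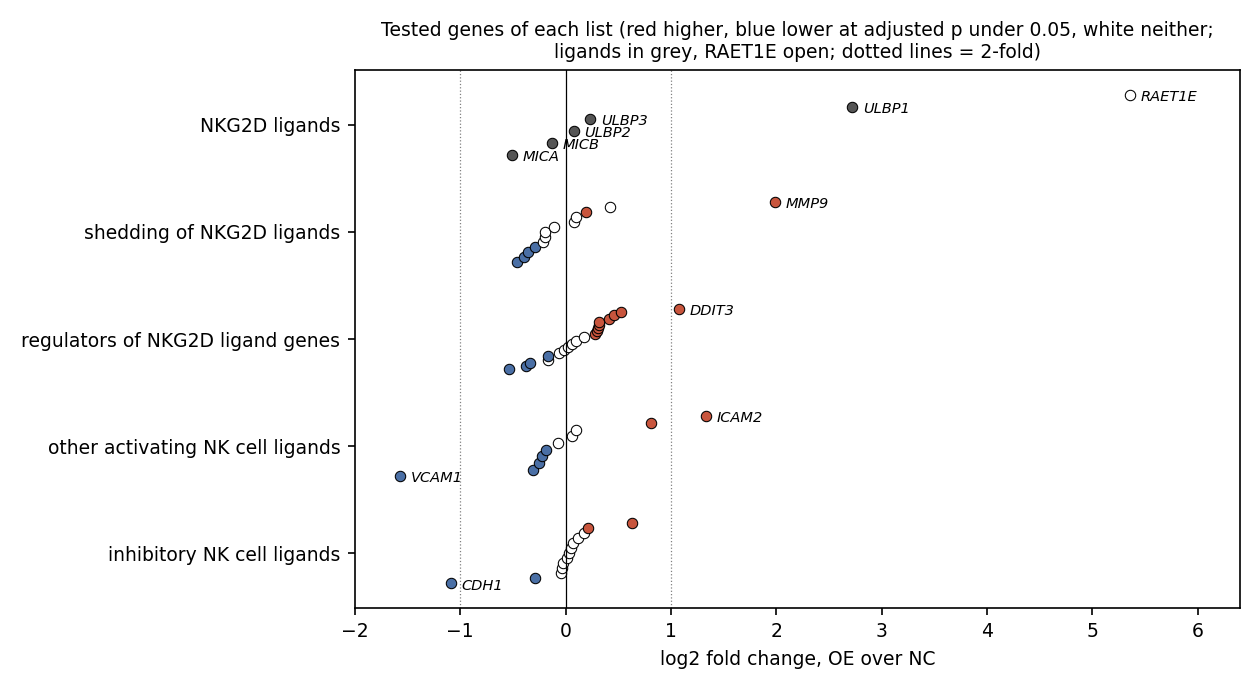
Log2 fold changes of OE over NC for the tested genes of the NKG2D ligands (grey, with RAET1E open because its fitted value depends on the prior count) and of the 4 lists (red higher and blue lower at an adjusted p under 0.05, white neither), with dotted lines at a fold of 2. Among the lists, MMP9, DDIT3 and ICAM2 lie beyond the line on the right and VCAM1 and CDH1 beyond that on the left, while ULBP1 lies at 2.72 and MICA at −0.51.

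The genes beside the ligands were also read. Within 500 kb of the ULBP cluster lay 26 other genes, of which 12 were tested, 1 was called higher and 0 lower, and at the adjusted p 4 were higher and 0 lower, where 24.9% and 23.7% of all tested genes were. Singled out after their values had been seen, these 4 were RAET1K, a pseudogene of the family, PPIL4, PCMT1 and LRP11. RAET1K (ENSG00000218358.2) had 21, 16 and 12 counts in NC and 28, 58 and 31 in OE and stood at 1.15 on the log2 scale (standard error 0.35, adjusted p = 0.0091), a value of 0.96 without NC replicate 3 and 0.80 without OE replicate 2, where it was no longer called. Its sequence was not aligned to those of the members, and whether it shares reads with them was not tested. PPIL4, a cyclophilin, rose by 0.47 (standard error 0.05), PCMT1, a protein repair methyltransferase, by 0.18 (standard error 0.05), and LRP11, a receptor-related protein, by 0.80 (standard error 0.26). LRP11 lies within the span of RP11-350J20.15 on the same strand, so its counts are uncertain too. Around MICA and MICB lay 84 other genes, of which 52 were tested, 2 were called higher and 4 lower, and at the adjusted p 12 were higher and 15 lower, where 24.9% and 23.7% of all tested genes were. The 5 neighbouring genes with the smallest adjusted p were all in this region, namely SNHG32, a host of small nucleolar RNAs, at 1.46 (standard error 0.07), XXbac-BPG254B15.11 at 1.38 (standard error 0.08), the noncoding HCG22 at −2.06 (standard error 0.13), TCF19, a cell cycle-linked factor, at 0.73 (standard error 0.05) and DDR1, a collagen receptor, at −0.78 (standard error 0.06). SNHG32 and XXbac-BPG254B15.11, the 2 called higher in this region, overlap each other on the plus strand. Their values may therefore rest on shared reads, which was not tested.

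**Figure D5:**
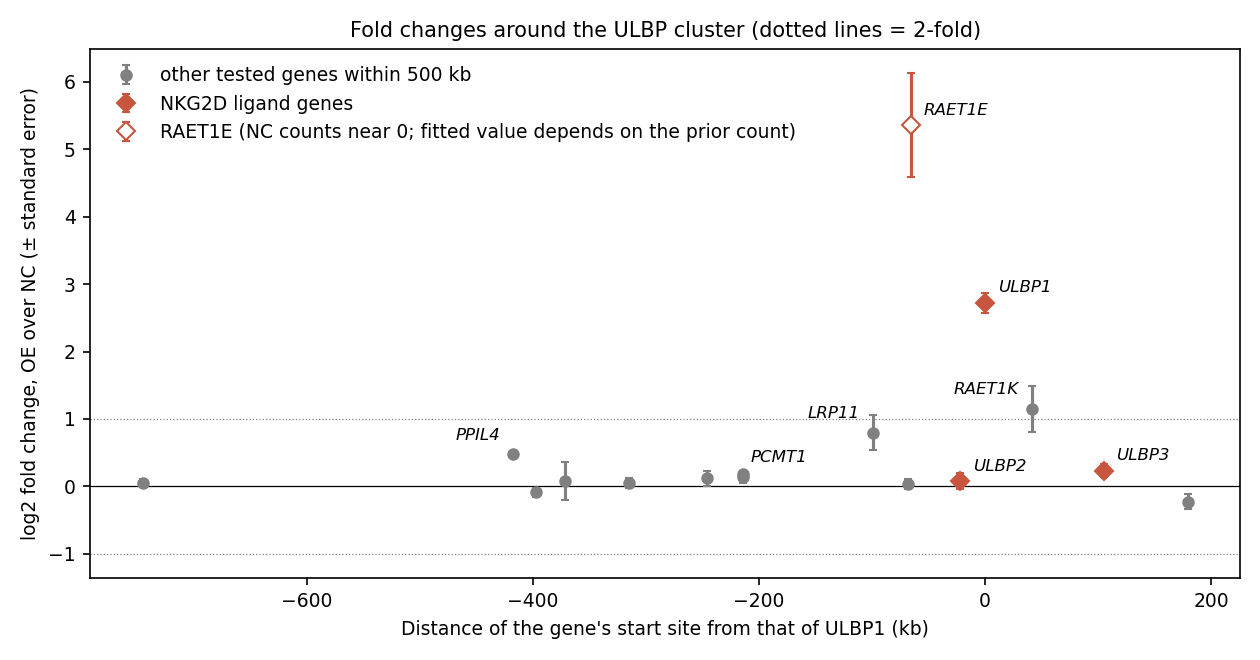
Log2 fold changes of OE over NC with their standard errors for the tested genes of the ULBP cluster (red diamonds, RAET1E open) and for the 12 tested genes within 500 kb of it (grey), against the distance in kb of the start site from that of ULBP1, with dotted lines at a fold of 2. ULBP2, which starts 21.9 kb before ULBP1, lies at 0.08, ULBP1 at 2.72 and RAET1K at 1.15.

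The genes most like ULBP1 over the 6 samples were sought among the 11770 tested genes whose mean count reached 100, by the root mean square difference of log2 CPM after centring each gene on its mean. The median over these genes was 1.37. TRIB3, a pseudokinase, came first at 0.279, followed by ASNS, asparagine synthetase, at 0.281, INHBE, an activin subunit, at 0.325, NDUFA4L2, a mitochondrial subunit paralog, at 0.362 and PTX3, a secreted pentraxin, at 0.376. Their log2 fold changes were 2.35, 2.33, 2.26, 2.10 and 2.02, each below that of ULBP1. All 5 were higher in CPM in every OE sample than in any NC sample. For TRIB3 the study reported the opposite by RT-PCR, a significant decrease in OE. The likeness over 6 samples is a description. With 2 groups of close replicates this measure mainly follows the size of the fold change. It therefore shows little beyond which well-counted genes had a fold change near that of ULBP1.

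Markers of other cells were near absent where the receptor side is concerned. Of 10 markers of NKG2D-bearing and other lymphocytes, 7 were in the table and 0 were tested, with 3 to 14 counts summed over the list in NC and 0 to 6 in OE. The highest of them by mean FPKM was HCST, which encodes the adaptor DAP10, with 0, 0 and 2 counts in NC and 1, 0 and 0 in OE. KLRK1, the gene of NKG2D itself, came next by mean FPKM but had more counts, 2, 1 and 1 in NC and 3, 0 and 5 in OE. The 10 epithelial markers summed to 898 to 1008 FPKM in NC and 772 to 842 in OE, led by the keratins KRT8 and KRT18 at a mean of 249 and 183. At the adjusted p 2 of them, KRT7 and PAX8, were higher and 5 lower. Of all tested genes 24.9% were higher and 23.7% lower. The list also holds VIM, which is among the 5, and CDH2. Of 10 markers of differentiated proximal tubule, 8 were in the table, and their summed FPKM was only 0.51 to 0.8 in NC and 0.39 to 0.45 in OE, led by GGT1 and SLC5A2. LRP2, which encodes megalin, had 0 counts in all samples but NC replicate 2, which had 1, and CUBN, which encodes its partner cubilin, had at most 6. The defining markers of the tubule cell from which HK-2 was derived were thus almost absent. Fibroblast and endothelial markers, 8 in all, summed to 3.64 to 3.66 FPKM in NC and 1.88 to 2.05 in OE, led by LUM and COL1A1, at log2 fold changes of −1.94 (standard error 0.17) and −0.99 (standard error 0.10). The endothelial markers PECAM1 and VWF went the other way, at 0.52 (standard error 0.20) and 0.41 (standard error 0.15), so that at the adjusted p 2 markers of the list were higher and 2 lower. Called lower were 1 epithelial, 2 tubule and 1 fibroblast marker, and 0 markers of any of the 4 marker lists were called higher. The tubule calls, GGT1 and SLC5A2 at −1.09 and −1.08, were lost without NC replicate 2, at −0.89 and −0.72. The epithelial, the tubule and the fibroblast and endothelial sums were thus all lower in OE beside the values of the ligands, and their part in those values was not tested.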

How the data were processed

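The authors sequenced stranded mRNA libraries of 3 NC and 3 OE samples of HK-2 cells. Per the methods and the labels, they trimmed the reads, aligned them to GRCh38 with HISAT2 and used uniquely mapped reads. The labels also list mm10, which was not used here. The authors deposited raw counts for 31369 genes and FPKM values, to 2 decimals, for 30896 genes. Groups were taken from the genotype labels.

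The counts were analysed with edgeR 4.0.16 (R 4.3.3), using filterByExpr, TMM, the quasi-likelihood test and Benjamini-Hochberg adjustment over 15878 genes. The standard error of a fold change was taken from its F statistic. DESeq2 1.42.0, limma 3.58.1 on log2(FPKM + 1) and log2(FPKM + 0.1), other scalings and filters, the replicate number as a block and each sample left out were alternatives. The code was tested on simulated data. Gene identifiers matched GENCODE 44 for 99.8% of genes, and coding sequences were aligned with Biopython 1.88. The totals of 34635770 to 39850802 counts limit precision mainly for the RAET1 genes.

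The rule for naming genes takes *PPM1K*, the 8 members, in each list and among the neighbouring genes up to 5 tested genes of smallest adjusted p, the 2 highest genes of each marker list, and the 5 genes most like ULBP1. Names outside this rule are given as chosen after their values were seen. They include ADAM17, ADAM10, PVR, LRP2, CUBN, KRT7, PAX8, VIM, CDH2, PECAM1, VWF and the genes that overlap a member. The members and lists were chosen with earlier results of these data known. A result that the naming rule would include is not reported here.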

Additional observations from a re-analysis of the deposited data

How the results depend on the processing

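Across the count-based alternatives, the genes called over the transcriptome numbered 597 to 1076 against 875, with 796 in DESeq2, of which 714 were shared, and 862 to 955 with each sample left out. On log2(FPKM + 1) and log2(FPKM + 0.1) they numbered 124 and 437. Of the NKG2D ligand genes, 2 were called, but 1 with at least 10 counts in every sample, a filter that removes RAET1E, and 1 on log2(FPKM + 1), where RAET1E stood at 0.21. On log2(FPKM + 1) and log2(FPKM + 0.1) the list genes called were 2 and 3 against 5, and the neighbouring genes 3 and 4 against 7. The pseudocount compresses low values by construction. Members with the motif TGATGNAA numbered 1, against 0 with TGATGCAA and, chosen after seeing the data, 2 with TGACG. A replicate block in the model gave 877 calls, of which 856 were shared, and the counts of called ligand, list and neighbouring genes were 2, 5 and 7. The deviations of same-numbered samples correlated at −0.00319, −0.0663 and −0.0542, so no pairing by number was seen. These values cannot exclude one, because a library that stands apart shifts the deviations of its whole group. The log2 fold changes of 56 genes were set against the alternatives in 782 comparisons. In 2 the sign changed, for KRT18 from 0.02 to −0.014 with upper quartile normalization and −0.017 without NC replicate 2, within a range of −0.017 to 0.062 with each sample left out. In 23 a call was lost, for RAET1E, MMP9, ICAM2, CDH1, NDUFA4L2, RAET1K, GGT1, SLC5A2 and LUM, and in 4 it was gained, for LRP11 at 1.18 without NC replicate 1 and for COL1A1, next to the fold of 0.5, in 3. The comparison of proteins was not run, and coding sequences took its place. Counts limit what can be said of RAET1E, RAET1G and RAET1L.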
